A study of Mus musculus with 186 samples.

Results

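The 32 genes described here mark the cells of brain blood vessels. They were taken as a given list of symbols from a table of 28338 genes, and all 32 were found. Of these, 21 are genes of endothelial cells, 7 are mostly used as markers of pericytes and 4 belong to smooth muscle. Their RNA was measured by bulk sequencing of tissue pieces in 186 libraries from mice with a disrupted Akap11 gene, which encodes an anchoring protein for protein kinase A.

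The groups combine 6 brain regions, 2 ages and 3 genotypes. The cortical regions are prefrontal (PFC) and somatosensory (SSC) cortex, and the others are hippocampus (HP), thalamus (TH), striatum (STR) and substantia nigra (SN). The ages are 4 weeks (96 libraries) and 12 weeks (90 libraries), and each mouse was wild type (WT), heterozygous (Akap11 +/-, HET) or homozygous mutant (Akap11 -/-, KO). The labels put 5 libraries in each of 30 groups and 6 in each of the other 6, which are WT of HP, TH and SN and HET of PFC, SSC and SN, all at 4 weeks. The labels give no strain, sex or treatment and name no tissue-specific driver of the mutation. The genotypes are read here as Akap11 alleles of the whole animal. Whether the groups also differ in sex or strain cannot be told. Pieces were cut from frozen brains in a cryostat, which leaves neurons, glia, vessels, meninges and blood together. A lower level in such tissue can come from fewer vessel cells or from less RNA per cell, and these cannot be told apart. Nothing in the labels says that replicates of a group came from separate litters or cultures, so p-values measure the spread between these samples, and libraries of different regions may come from the same animal.

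Brain vessels are lined by endothelial cells that are sealed by tight junctions and that move glucose, lipids and other cargo through dedicated transporters, a property known as the blood-brain barrier. Pericytes sit on capillaries inside the same basement membrane, are recruited by PDGF from the endothelium through the receptor Pdgfrb, and depend on Notch3 signalling. Smooth muscle cells ring arteries and arterioles and contract through actin and myosin isoforms of their own. Vessels of the brain surface are also accompanied by fibroblasts, which share several genes with mural cells.

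The endothelial genes were Pecam1, Cdh5 and Esam (adhesion at cell contacts), Emcn, Vwf, Eng, Egfl7, Ly6c1, Ly6a and Itm2a (surface, matrix and secreted proteins), Flt1, Kdr, Tek and Tie1 (receptors of VEGF and angiopoietin), and Cldn5, Ocln, Slco1a4, Slc2a1, Abcb1a, Mfsd2a and Bsg (junctions and transport). The pericyte genes were Pdgfrb, Rgs5, Abcc9, Vtn, Anpep, Higd1b and Notch3. The smooth muscle genes were Acta2, Myh11, Cnn1 and Des.

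Sequences just before the start sites are shown for 5 genes with age differences described further on: Kdr, Rgs5, Notch3 and Mfsd2a, which fell between 4 and 12 weeks in SSC and STR, and Flt1, which rose in PFC, TH and SN. They come from RefSeq on the GRCm38.p6 build. Each line gives the 250 bases before the start site, 5′ to 3′ on the gene's own strand, and capitals mark matches, on either strand, to the 3 short motifs named after them.
Kdr: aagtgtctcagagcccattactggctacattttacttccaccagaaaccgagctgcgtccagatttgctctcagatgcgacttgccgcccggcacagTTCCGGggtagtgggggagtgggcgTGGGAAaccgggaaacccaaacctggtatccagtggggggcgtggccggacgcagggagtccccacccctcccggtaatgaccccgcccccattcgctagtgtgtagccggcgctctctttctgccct
Rgs5: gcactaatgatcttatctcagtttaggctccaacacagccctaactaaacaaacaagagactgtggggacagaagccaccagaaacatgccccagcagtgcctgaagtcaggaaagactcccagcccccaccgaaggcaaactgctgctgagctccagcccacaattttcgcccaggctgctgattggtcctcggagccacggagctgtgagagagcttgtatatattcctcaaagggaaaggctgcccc
Notch3: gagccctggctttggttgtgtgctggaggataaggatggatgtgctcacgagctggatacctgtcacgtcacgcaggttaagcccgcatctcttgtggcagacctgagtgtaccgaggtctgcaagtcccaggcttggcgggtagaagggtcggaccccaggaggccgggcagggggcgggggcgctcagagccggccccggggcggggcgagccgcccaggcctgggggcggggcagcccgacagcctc
Mfsd2a: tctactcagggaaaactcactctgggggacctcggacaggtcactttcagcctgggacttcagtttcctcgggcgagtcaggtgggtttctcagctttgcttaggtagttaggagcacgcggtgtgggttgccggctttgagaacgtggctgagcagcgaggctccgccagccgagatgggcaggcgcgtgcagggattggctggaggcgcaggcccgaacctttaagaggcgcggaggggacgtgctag
Flt1: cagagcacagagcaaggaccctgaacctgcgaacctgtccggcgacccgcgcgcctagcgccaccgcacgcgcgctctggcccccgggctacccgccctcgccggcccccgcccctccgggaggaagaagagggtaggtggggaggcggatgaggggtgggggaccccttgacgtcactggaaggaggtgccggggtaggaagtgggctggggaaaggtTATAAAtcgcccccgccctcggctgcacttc
The stretches lie at chr5:75978456-75978705 on the minus strand for Kdr, chr1:169655251-169655500 on the plus strand for Rgs5, chr17:32166891-32167140 on the minus strand for Notch3, chr4:122961189-122961438 on the minus strand for Mfsd2a and chr5:147726012-147726261 on the minus strand for Flt1. Kdr encodes the main VEGF receptor of endothelium, Rgs5 a regulator of G protein signalling in pericytes, Notch3 the mural cell Notch receptor, Mfsd2a a lipid transporter of the barrier and Flt1 a VEGF receptor that also acts as a decoy. The GC content of these stretches was 61.6% for Kdr, 53.6% for Rgs5, 68.8% for Notch3, 61.6% for Mfsd2a and 70.4% for Flt1, against a median of 52.4% over all RefSeq promoters. RefSeq promoters matched 23 of the 32 genes, in 27 windows from 250 bases before to 50 after the start. The motif TGGGAA, a core bound by the Notch effector RBPJ, occurred for 6 of these genes (Abcc9, Acta2, Egfl7, Kdr, Tie1 and Vtn) and in 25.6% of all 32851 promoters. The motif CCGGAA, a core of ETS factors, occurred for Kdr and Ocln and in 14.9% of all promoters. The 2 motifs share their end, and their matches in Kdr, with first bases 128 and 153 bases before the start, did not overlap. TATAAA occurred for Flt1, Ly6c1, Slc2a1 and Vtn and in 13.6% of all promoters. The CArG box, an element of smooth muscle genes, was searched in its strict form with no mismatch and occurred in 0 of the 27 windows and in 1.63% of all promoters; variants of it were not searched. These are matches of letters in a short window, searched on both strands.

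The libraries held 20.8 to 73.3 M counts, with a mean of 46.1 ± 9.60 M (SD, n = 186). Levels are given as CPM, counts scaled to library size, with TMM factors over all libraries. Akap11 stood at 5.08 to 7.98% of WT in KO and at 50.2 to 61.8% in HET over the 12 pairs of region and age, and the HET decrease did not pass the test in HP (adjusted p = 0.273) or SN (adjusted p = 0.548) at 4 weeks. The library labelled SN WT 92 at 4 weeks goes against its label, with 44.8 CPM of Akap11 against 197 to 245 CPM in the other WT libraries of that group. It also lay outside the SN ranges of HET (97.8 to 139 CPM) and KO (13.5 to 15.9 CPM) at that age. Each other region has a 4-week WT library numbered 92, and the lowest WT level there was 221 CPM, in TH. Some 4-week libraries stood apart in marker genes of neurons: STR WT 92 and KO 51, 161 and 163, TH WT 913, 914 and 23, and SN WT 42 and 92 and KO 44 and 91. In 16 of the 4-week libraries 5.55% of the values above 0 or fewer were whole, where the remaining libraries had 17.3% or more, and the sources used here give no reason.

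Levels can be compared between genes only per length. Averaged over the 12 WT groups, Bsg, a surface protein that many other brain cells also make, stood highest at 225 CPM per kilobase of the longest transcript. The glucose transporter Slc2a1 had 30.8, the matrix protein Vtn 28.1 and Ly6c1 25.7 CPM per kilobase. The tight junction gene Cldn5 had 12.7 and Rgs5 12.9 CPM per kilobase. The contractile genes were low, with Acta2 at 3.13, Myh11 at 0.793, Des at 0.364 and Cnn1 at 0.134 CPM per kilobase. Markers of endothelium, pericytes and smooth muscle were thus detected in the tissue. Cnn1 stood near the floor, with a mean of 0.319 CPM over the 12 WT groups, and was not tested in the age fit of STR. Ly6c1 shares 57.1% of its 31-base words with other genes, Abcb1a 23.2% and Ly6a 22.1%, so their counts are uncertain where reads could be split between near copies. Cdh5, Egfl7, Eng, Slc2a1, Abcb1a, Abcc9, Notch3 and Des overlap genes on the opposite strand, and the sources used here do not say whether counting used the strand.

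In WT mice of 12 weeks, vessel genes were highest in thalamus and substantia nigra and lowest in hippocampus and striatum. Each region was compared with the mean of the other 5 in one edgeR quasi-likelihood fit per age, with p-values adjusted over all genes tested and a call at an adjusted p under 0.05. In TH 20 higher and 4 lower of the 32 genes were called, with a median log2 difference of 0.42, where 34.1% and 32.7% of all genes tested were. In SN 16 higher and 2 lower were called (all genes 35.7% and 32.1%), with a median of 0.31. In HP 1 higher and 17 lower were called (all genes 27.8% and 26.7%), with a median of -0.34. In STR 0 higher and 16 lower were called (all genes 32.5% and 34.7%), with a median of -0.36. Of the 21 endothelial genes, 16 higher and 1 lower were called in TH, 13 higher and 0 lower in SN, 1 higher and 14 lower in HP and 0 higher and 13 lower in STR. The cortical regions were mixed, with 5 higher and 5 lower in PFC (all genes 29.2% and 27.8%) and 3 higher and 10 lower in SSC (all genes 28.7% and 27.7%). Without WT replicate 2 or without WT replicate 3 the SSC calls numbered 7, against 13 with all libraries.

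**Figure D1:**
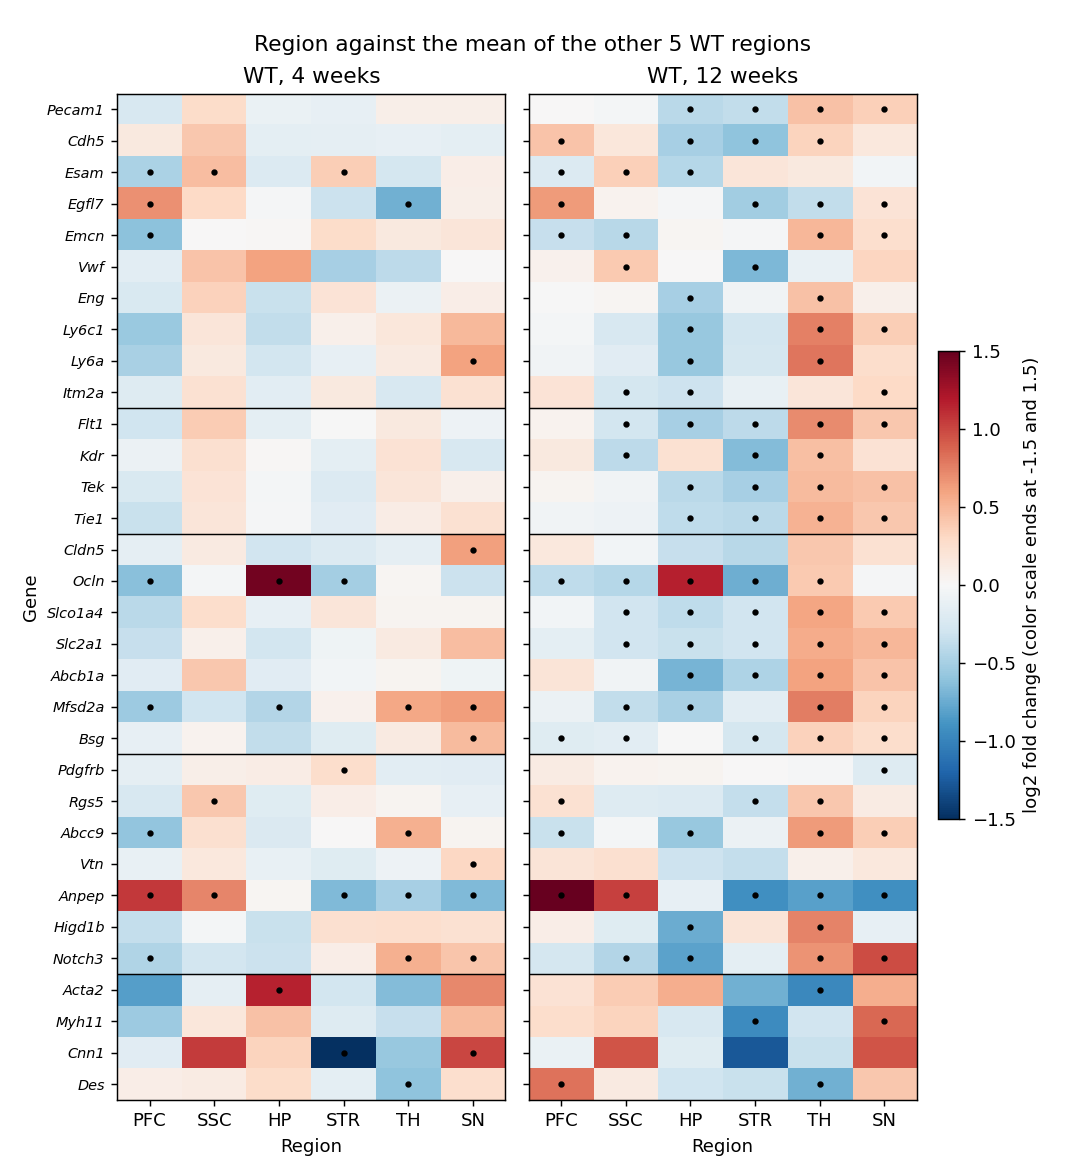
Log2 difference of each region from the mean of the other 5 regions in WT mice, for the 32 genes (rows) and 6 regions (columns) at 4 and 12 weeks. Color runs from -1.5 to 1.5 and dots mark calls at an adjusted p under 0.05; at 12 weeks the TH column holds 20 higher and 4 lower calls and the STR column 0 and 16.

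At 4 weeks, without a replicate block, the calls numbered 3 higher and 3 lower in TH (all genes 25.9% and 22.2%), 7 higher and 1 lower in SN (all genes 31.4% and 27.5%), 2 higher and 1 lower in HP (all genes 19.7% and 16.7%), 2 higher and 3 lower in STR (all genes 26.8% and 26.1%), 2 higher and 6 lower in PFC (all genes 21.7% and 21.3%) and 3 higher and 0 lower in SSC (all genes 19.4% and 19%). Each of these shares of the 32 members was below that of all genes in this fit. With a replicate block the calls numbered 14 in PFC, 7 in SSC and 5 in HP. The shares of all genes with the block are not given here. Single replicate numbers moved the counts at this age. SN had 8 calls, 3 without WT 92 and 5 without WT 913. PFC had 8, 4 without WT 914 and 5 without WT 23. SSC had 3, 1 without WT 913 and 5 without WT 914. STR had 5, 2 without WT 142 and 3 without WT 42. Without the WT libraries that stand apart in neuron markers, 6 genes were called in SSC, 6 in HP and 4 in SN.

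Among surface and transport genes, Ly6a, of the Ly6 family, had 18.5, 22.3, 26.2, 29.2 and 36.1 CPM in TH at 12 weeks and 8.11, 11, 12, 12.3 and 16.1 CPM in HP. The thalamic libraries all stood above the hippocampal ones, and Ly6a was 0.80 higher in TH than in the other regions on the log2 scale (SE 0.16, adjusted p = 8.6e-05). Abcb1a, the P-glycoprotein drug pump, had 32.4, 36.3, 38.2, 38.8 and 45.9 CPM in TH and 13.3, 17, 17.9, 19.2 and 22.5 CPM in HP, again without overlap. Its log2 difference was 0.60 in TH (SE 0.09, adjusted p = 6.4e-07). Flt1 had 58.2, 63.9, 68.3, 68.9 and 88 CPM in TH and 27.4, 33, 34.9, 36.8 and 38.9 CPM in HP, and was 0.71 higher in TH (SE 0.10, adjusted p = 7.0e-07). All 4 receptor genes were called higher in TH (4 of 4) and 3 of 4 in SN, and 6 of the 7 junction and transport genes in TH.

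Mfsd2a was higher in TH at both ages, by 0.58 at 4 weeks (SE 0.13, adjusted p = 5.7e-04) and 0.76 at 12 weeks (SE 0.11, adjusted p = 7.7e-07). At 12 weeks it had 21.6, 25.5, 31.1, 31.8 and 34.4 CPM in TH and 11.5, 13.1, 15, 15.8 and 19.1 CPM in SSC, which did not overlap. In SN it was 0.63 higher at 4 weeks, where the library labelled WT 92 held the highest level, 66.3 CPM. In HP its 4-week difference was -0.43.

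At 12 weeks Notch3 had the widest regional range of the pericyte genes other than Anpep. It had 15.5, 21.1, 22.7, 24.3 and 24.3 CPM in SN, 11.1, 14.9, 21.1, 21.5 and 22.3 in TH and 6.78, 7.12, 7.52, 7.88 and 9.07 in HP. The HP libraries all lay below those of SN and TH. The log2 difference was 0.98 in SN (SE 0.12, adjusted p = 1.8e-08), 0.68 in TH (SE 0.12, adjusted p = 1.5e-05) and -0.81 in HP (SE 0.14, adjusted p = 9.5e-06). Higd1b, a mitochondrial protein gene used as a pericyte marker, had 1.24, 1.72, 1.83, 1.99 and 2.48 CPM in TH and 0.626, 0.665, 0.675, 0.793 and 1.12 CPM in HP, with log2 differences of 0.74 and -0.74. Pdgfrb differed little, with -0.20 in SN at 12 weeks and 0.26 in STR at 4 weeks. Of the 7 pericyte genes, 4 were called higher in TH and 3 lower in HP at 12 weeks.

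Some genes followed another order. Ocln, a tight junction gene, stood highest in HP, with 1.45 at 4 weeks (SE 0.14, adjusted p = 7.9e-10) and 1.16 at 12 weeks (SE 0.11, adjusted p = 2.1e-10). At 12 weeks it had 11, 12.5, 12.7, 15.4 and 17.8 CPM in HP and 4.34, 5.09, 6.36, 6.42 and 6.46 CPM in PFC, without overlap. Epithelia of the choroid plexus also make occludin, and 8 of 8 choroid plexus and ependyma genes were called higher in HP at 4 weeks and 8 of 8 at 12 weeks; their part in the Ocln level was not tested. Anpep, an aminopeptidase of pericytes and fibroblasts, was higher in PFC by 1.06 at 4 weeks and 1.74 at 12 weeks, and in SSC by 0.73 and 1.03. At 12 weeks it had 6.44, 8.94, 9.91, 10.3 and 11.8 CPM in PFC and 1.57, 1.99, 2.04, 2.14 and 2.31 CPM in STR, with no overlap. Of the 10 fibroblast genes, 8 were called higher in PFC and 10 lower in STR at 12 weeks, and their part in the Anpep level was not tested.

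Egfl7, a secreted endothelial matrix protein, was 0.68 higher in PFC at 4 weeks and 0.64 at 12 weeks. Its 12-week libraries held 25.3, 26, 26.7, 27.3 and 28 CPM in PFC, above the 12.3 to 17.4 CPM of TH. Emcn, a sialomucin of veins and capillaries, was lower in PFC, with -0.61 at 4 weeks and -0.34 at 12 weeks. Esam, an adhesion molecule, was 0.46 higher in SSC and 0.37 higher in STR at 4 weeks, and Vwf, the clotting factor carrier, 0.39 higher in SSC at 12 weeks. The Vwf call held in 4 of 9 alternatives and that of Esam in 10 of 11 in SSC and 8 of 11 in STR. Among contractile genes, Acta2, smooth muscle actin, was 1.16 higher in HP at 4 weeks and had -0.97 in TH at 12 weeks. Myh11, smooth muscle myosin, had 1.69, 2.03, 2.29, 3.49 and 5.15 CPM in STR and 3.33, 4.79, 5.50, 9.45 and 18.8 CPM in SN at 12 weeks, which overlapped, with log2 differences of -0.94 and 0.86. Cnn1, calponin, had -1.64 in STR and 1.00 in SN at 4 weeks, and without the WT libraries that stand apart neither passed the test (-1.29, adjusted p = 0.0984, and 1.04, adjusted p = 0.0808). Des, an intermediate filament gene, was 0.82 higher in PFC at 12 weeks and had -0.60 in TH at 4 weeks, a call that held in 6 of 11 alternatives.

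Each of the 32 genes was called in at least 1 of the 12 regional comparisons, and 30 of them in both directions. Over all genes tested in the 12 comparisons these shares were 97.7% and 92.4%, and since each region is set against the mean of the others, calls in both directions come with the contrast. The other 2 were Cldn5 (0.62) and Vtn (0.31), each called higher once, in SN at 4 weeks, where the WT group holds the library that goes against its label. Other pathway genes were read from further lists at 12 weeks, against 34.1% and 32.7% of all genes called higher and lower in TH and 32.5% and 34.7% in STR. Of 17 ligand and receptor genes of the VEGF, angiopoietin and PDGF pathways, 10 higher and 4 lower were called in TH and 0 higher and 14 lower in STR. Of 14 endothelial transcription factors, 4 higher and 2 lower were called in TH and 1 higher and 11 lower in STR. Of 16 genes of Wnt signalling at the barrier, 8 higher and 2 lower were called in TH and 2 higher and 10 lower in STR, and of 20 junction and transporter genes 10 higher and 3 lower and 2 higher and 14 lower. Of 11 Notch pathway genes 6 higher and 3 lower were called in TH and 3 higher and 4 lower in STR, and of 9 further pericyte genes 5 higher and 1 lower and 2 higher and 4 lower. Neurons and glia make several of these genes too.

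Between 4 and 12 weeks, vessel genes of WT mice changed in different directions by region. Of the 21 endothelial genes 4 rose and 0 fell in PFC and 7 rose and 0 fell in TH, while 5 fell in HP, 7 in SSC and 2 in STR. Of the 7 pericyte genes 5 fell in HP, 4 in SSC, 3 in STR and 1 in TH. The 2 of 21 endothelial genes in STR and the 1 of 7 pericyte genes in TH are near background. Of all genes 9.41% fell in STR and 12.6% in TH. The ages are different animals, and age cannot be told apart from any batch that went with it. In PFC 5 rose and 0 fell of 32 genes (all genes 8.89% and 10.2%). In TH 7 rose and 1 fell (all genes 10% and 12.6%), in HP 0 rose and 10 fell (all genes 7.05% and 10.6%) and in SSC 1 rose and 11 fell (all genes 13.5% and 13.7%). In STR 0 rose and 5 fell of 31 tested (all genes 9.12% and 9.41%), and in SN 2 rose and 1 fell (all genes 6.86% and 11.8%). The median log2 change of the members was 0.18 in PFC, 0.20 in TH, -0.26 in HP, -0.20 in SSC and -0.22 in STR.

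Ly6a had 6.54, 7.39, 7.41, 8.10 and 10.7 CPM in PFC at 4 weeks and 11.4, 12.5, 13.1, 20.8 and 22.6 CPM at 12 weeks. The 12-week libraries all lay above the 4-week ones, and Ly6a rose by 1.01 on the log2 scale (SE 0.21, adjusted p = 0.00125). In TH it rose by 1.20 (SE 0.21, adjusted p = 1.8e-04), from 7.15 to 18.6 CPM with a median of 11.1 to 18.5, 22.3, 26.2, 29.2 and 36.1 CPM, where the ranges met at their ends. Ly6c1, of the same family, rose by 0.79 in PFC and 0.84 in TH.

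Abcb1a had 15.4, 16.6, 17.4, 19.5 and 26.1 CPM in PFC at 4 weeks and 27.3, 27.9, 29.98, 32.8 and 33.2 CPM at 12 weeks, without overlap. It rose by 0.67 there (SE 0.19, adjusted p = 0.0114) and by 0.84 in TH (SE 0.17, adjusted p = 8.0e-04), again without overlap. Flt1 rose by 0.50 in PFC, from 23.2, 33.4, 34.2, 34.6 and 42.8 to 43.3, 43.5, 46.8, 47.8 and 55.9 CPM, and by 0.67 in TH. Pecam1, Cdh5 and Ocln also rose in TH, by 0.54, 0.44 and 0.56. The TH calls of Ly6a, Ly6c1, Abcb1a, Flt1 and Ocln held in 18 of 18 alternatives, that of Pecam1 in 11 of 18 and that of Cdh5 in 5 of 18.

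Rgs5 had 57.1, 72.9, 74.6, 86.9 and 105 CPM in SSC at 4 weeks and 31.6, 35.8, 36.7, 39 and 39.9 CPM at 12 weeks. The groups did not overlap, and Rgs5 fell by 1.11 on the log2 scale (SE 0.15, adjusted p = 2.5e-06). In STR it fell by 0.95 (SE 0.17, adjusted p = 2.3e-04), from 51.8, 57.1, 61.1, 68.4 and 91.6 to 26.9, 28, 33.9, 35.6 and 42.4 CPM, also without overlap, and in HP by 0.65. Kdr had 9.49, 14.1, 15.9, 17.4 and 17.6 CPM in SSC at 4 weeks and 4.82, 6.39, 6.64, 7.83 and 9.39 CPM at 12 weeks. It fell by 1.08 there (SE 0.17, adjusted p = 2.6e-05) and by 0.95 in STR (SE 0.18, adjusted p = 5.0e-04), without overlap in either region. The bases before the start sites of both genes are printed above.

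**Figure D2:**
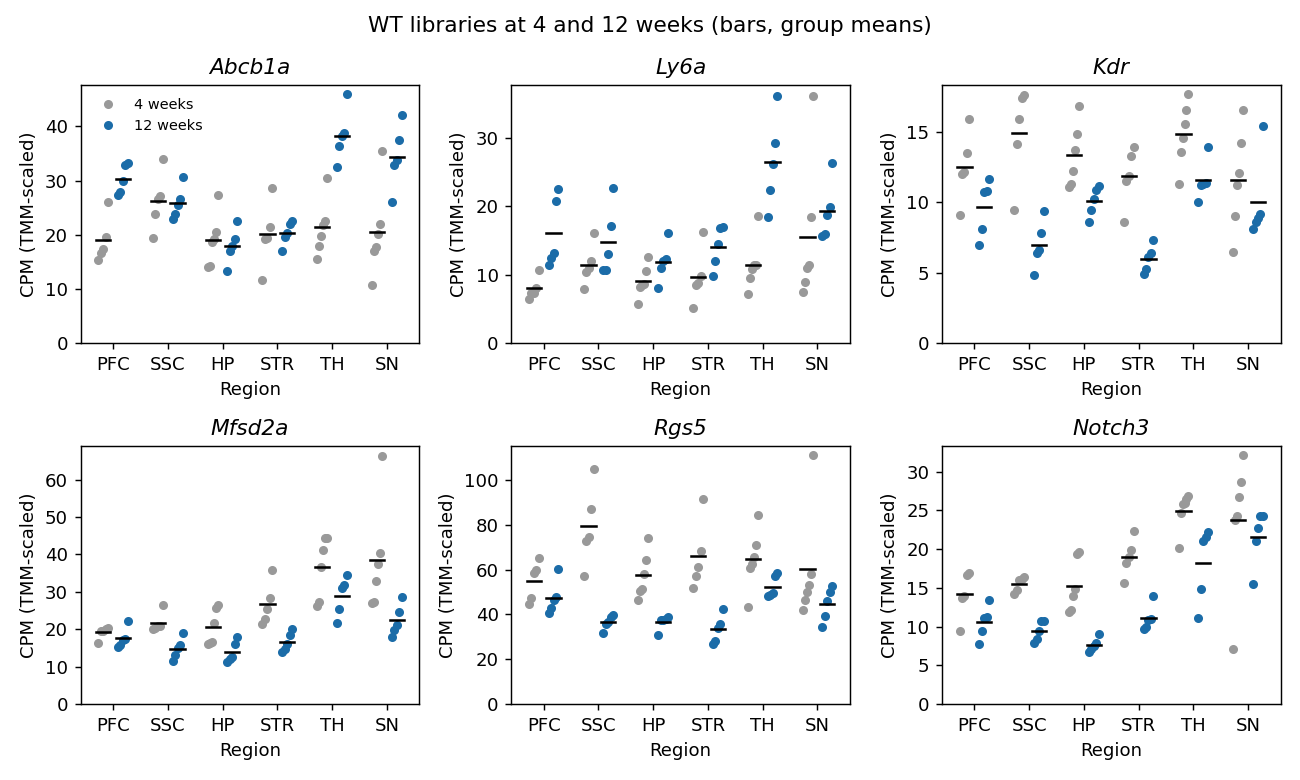
Level in CPM (y axis) of Abcb1a, Ly6a, Kdr, Mfsd2a, Rgs5 and Notch3 in each WT library by region (x axis) and age, with a bar at each group mean. Abcb1a and Ly6a stand higher at 12 weeks in PFC and TH, and Rgs5 and Kdr stand lower at 12 weeks in SSC and STR, where the ages do not overlap.

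Notch3 fell in 4 regions, by 1.00 in HP (SE 0.13, adjusted p = 3.6e-06), 0.71 in SSC, 0.75 in STR and 0.46 in TH. The TH call held in 13 of 18 alternatives and the STR call in 16 of 17, with adjusted p of up to 0.0893 and 0.198. Pdgfrb, the receptor by which pericytes are recruited, fell by 0.42 in HP, 0.36 in SSC and 0.52 in STR (SE 0.08, adjusted p = 2.9e-05). Its STR libraries had 28.4 to 32.6 CPM at 4 weeks and 18.8 to 22.9 CPM at 12 weeks, without overlap. Mfsd2a fell by 0.56 in HP, 0.54 in SSC, 0.65 in STR and 0.79 in SN. Eng, a TGF-beta co-receptor, fell by 0.51 in HP and 0.61 in SSC, and Slco1a4, an organic anion carrier, by 0.36 and 0.58. Vwf fell by 0.70 in HP, a call that held in 9 of 17 alternatives. Other HP calls held in 5 of 17 for Tie1, 7 for Higd1b and 11 for Slco1a4. In SSC they held in 6 of 16 for Itm2a, 7 for Slc2a1 and 9 for Bsg. The remaining member calls held in at least 15 of 17 alternatives in HP and in 16 of 16 in SSC. Acta2 rose, by 1.29 in PFC and 0.87 in SSC, calls that held in 11 of 16 and 16 of 16 alternatives.

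In all, 22 of the 32 genes were called in at least 1 region and 0 in both directions, against 57.8% and 1.51% of all genes tested in the 6 regions. The other 10 were Anpep, Cldn5, Cnn1, Des, Egfl7, Emcn, Esam, Myh11, Tek and Vtn. Genes of other cells moved with age as well. Of 8 oligodendrocyte genes 8 fell in STR, 8 in HP and 8 in SN (median -1.58 there), 7 in TH, 7 in SSC and 2 in PFC. In TH 4 of 8 astrocyte genes rose and 2 fell, 4 of 8 microglia genes rose and 1 fell, and 4 of 5 blood cell genes fell, with a median of -3.68. In STR 4 of 4 blood cell genes fell, with a median of -4.29. In STR 6 of 7 cortical neuron genes and 5 of 10 fibroblast genes fell as well. Neuron genes moved in the other regions too. In HP 5 of 8 thalamic neuron genes fell and 3 of 8 striatal neuron genes rose. In TH 4 of 6 cortical and 3 of 8 striatal neuron genes fell. In SN 5 of 8 dopamine neuron genes rose and 3 of 8 thalamic neuron genes fell. Of 8 cortical neuron genes 3 fell in PFC, and 3 fell and 1 rose in SSC. The part of these cells in the members' changes was not tested beyond the fibroblast covariate. With each library's fibroblast score (the mean log2(CPM + 1) of the 10 fibroblast genes) as a covariate, chosen after seeing the data, the member calls numbered 13 in PFC, 5 in HP, 1 in STR and 8 in SN. In STR Rgs5 then had -0.50 (adjusted p = 0.275, range over alternatives 1.0e-06 to 0.275) and Kdr -0.47 (adjusted p = 0.364, range 5.8e-06 to 0.364), while Pdgfrb held its call in 17 of 17 alternatives.

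Single libraries moved the age counts. PFC had 3 calls without 12-week WT 1 and 9 without 4-week WT 913, HP 5 without 12-week WT 3 and 6 without 4-week WT 914, TH 5 without 12-week WT 1 or WT 2, and SN 5 without 4-week WT 914. In SN, Mfsd2a, Abcb1a (0.74) and Flt1 (0.57) were the genes called with all libraries. Without WT 42 and 92, which stand apart, Mfsd2a had -0.55 (adjusted p = 0.0535, range over alternatives 0.00254 to 0.0881). Abcb1a had 0.53 (adjusted p = 0.0993, range 0.00106 to 0.102) and Flt1 0.39 (adjusted p = 0.19, range 0.00134 to 0.19). A fit of the WT libraries alone, which keeps WT 42 and 92, gave adjusted p of 0.0881, 0.102 and 0.169 for the 3 genes.

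Within groups the members did not vary as one block. Deviations of log2(CPM + 1) from the group mean were correlated over 186 libraries as a description, since libraries can share animals, depth and dissection. Pairs of smooth muscle genes had a median Pearson r of 0.75 (6 pairs), endothelial pairs 0.50 (210 pairs), endothelial with pericyte genes 0.34 (147 pairs) and pericyte pairs 0.24 (21 pairs). By rank (Spearman) correlation these medians were 0.61, 0.50, 0.32 and 0.26. The closest member of Ly6c1 was Ly6a (0.90), that of Flt1 was Abcb1a (0.89), that of Acta2 was Myh11 (0.88), that of Slc2a1 was Mfsd2a (0.81) and that of Rgs5 was the endothelial transporter gene Slco1a4 (0.78).

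The fibroblast score separated the mural genes further. Anpep followed it with r = 0.87, Vtn with 0.81 and Pdgfrb with 0.75, as did the endothelial gene Vwf with 0.80. Rgs5 (0.10) and Higd1b (-0.08) lay near 0. The 4 smooth muscle genes had a median of 0.71, and of 0.55 by rank correlation. For endothelial and pericyte genes the medians of r were 0.24 and 0.33. With the astrocyte score the medians of r were 0.40 for endothelial, 0.41 for pericyte and 0.58 for smooth muscle genes. The highest smooth muscle and fibroblast scores were in SN at 4 weeks, with HET 941 (smooth muscle 4.14, fibroblast 7.38), HET 93 (3.37 and 6.38) and KO 163 (3.11 and 5.96).

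**Figure D3:**
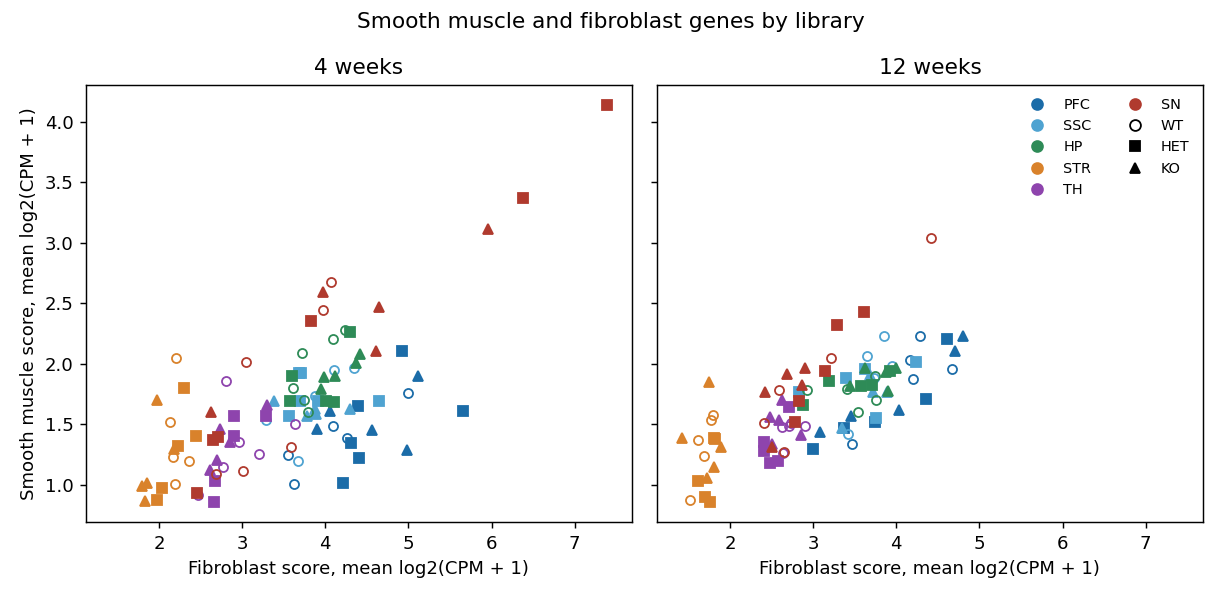
Smooth muscle score (y axis) against fibroblast score (x axis), both as mean log2(CPM + 1), for each library at 4 and 12 weeks. The library at the upper right, HET 941 of 4-week SN, has a fibroblast score of 7.38 and a smooth muscle score of 4.14.

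Loss of Akap11 gave 0 calls among the 32 genes in any of the 12 comparisons of KO with WT by edgeR's quasi-likelihood test. The comparison asks whether the mutation alters a gene's RNA in that region and age. Over all genes the share called in KO was 3.35% in STR at 4 weeks and 4.42% in STR at 12 weeks. Elsewhere it was 0.0125% in PFC, 0.0564% in SSC, 0.00609% in HP, 0.0128% in TH and 0.00617% in SN at 4 weeks, and 0.0123% in PFC, 0.0252% in SSC, 0.00608% in HP, 0.0064% in TH and 0.0364% in SN at 12 weeks. A count of 0 among 32 genes is near that background. Among all genes the share with an unadjusted p under 0.05 ran from 2.91% (HP at 12 weeks) to 17.9% (STR at 4 weeks). Of 380 tests of a member 25 had an unadjusted p under 0.05, 17 higher and 8 lower, and the smallest adjusted p was 0.107. DESeq2 called 2, both given further on. The 95% interval of the log2 difference lay within 1 of 0 in 350 of the 380 tests and within 0.5 in 205.

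In STR at 4 weeks 2 of 31 tested members had an unadjusted p under 0.05, against 17.9% of all genes. Of the 31, 27 lay below WT, with a median log2 difference of -0.14. Esam had 13.9, 14.4, 14.7, 17.1 and 20.8 CPM in WT and 9.63, 10.7, 11, 14.3 and 15.8 CPM in KO. These ranges overlapped, and the difference was -0.39 (SE 0.15, adjusted p = 0.171). Emcn had 3.63, 4.21, 4.86, 4.99 and 5.79 CPM in WT and 1.98, 2.28, 3.26, 4.16 and 4.35 in KO, overlapping, with -0.55 (SE 0.21, adjusted p = 0.176). Mfsd2a had 21.3, 22.7, 25.5, 28.3 and 35.8 CPM in WT and 17.2, 19.2, 22.2, 23.5 and 26.6 in KO (-0.29, SE 0.16, adjusted p = 0.345). Acta2 had 2.19, 2.23, 2.35, 6.10 and 8.44 CPM in WT and 1.11, 1.68, 1.92, 2.24 and 4.54 in KO (-0.89, SE 0.49, adjusted p = 0.364), with a 95% interval from -1.93 to 0.16. These 4 genes had the smallest p-values of the members there.

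Markers of other cells differed between the same libraries. The cortical neuron score was 5.23, 5.62 and 4.61 in KO 51, 161 and 163 and 4.51 in WT 92, against 0.39 to 1.32 in the others. Without these 4 libraries, which leaves 2 KO and 4 WT, Kdr had a difference of -0.79 (adjusted p = 0.0279, range over 18 alternatives 0.0279 to 0.891) and was the 1 member called. With all libraries it had 8.62, 11.5, 11.9, 13.3 and 13.9 CPM in WT and 6.75, 7.06, 8.29, 11.5 and 14.1 CPM in KO (-0.31, SE 0.18, adjusted p = 0.41), overlapping. The fibroblast score was 2.13 to 2.36 in WT and 1.80 to 2.19 in KO, with 8 of 10 fibroblast genes below WT, and the blood cell score 0.41 to 2.42 and 0.03 to 1.04. The astrocyte gene Aqp4 fell by 0.58 (adjusted p = 0.0139) and the microglia genes C1qa and C1qb fell by 0.35 and 0.30. These calls held in 16 of 18, 4 of 18 and 8 of 18 alternatives. Aqp4, C1qa and C1qb were listed with earlier results of these data known. No other gene of the astrocyte and microglia lists was called there. The part of other cells in the members' values was not tested beyond covariates for the cortical and fibroblast scores. With the fibroblast score Esam had -0.13, Emcn -0.33, Acta2 -0.32 and Mfsd2a 0.01.

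In STR at 12 weeks 4 of 31 members had an unadjusted p under 0.05, against 15.9% of all genes. Pdgfrb had 18.8, 19.3, 19.9, 21.2 and 22.9 CPM in WT and 22.3, 22.7, 23.7, 23.7 and 27.1 CPM in KO, which overlapped at their ends (0.22, SE 0.07, adjusted p = 0.107). Abcc9, a subunit of the pericyte potassium channel, had 5.94, 6.69, 6.70, 7.36 and 8.12 CPM in WT and 7.95, 8, 8.29, 9.25 and 10.03 in KO (0.31, SE 0.10, adjusted p = 0.117). Neither passed the test. Esam had 11.4, 12.1, 13.2, 13.5 and 17.4 CPM in WT and 10.1, 11, 11.1, 11.9 and 13.2 in KO (-0.25, SE 0.11, adjusted p = 0.252), and Itm2a, an endothelial surface protein, 21.8, 25, 26, 27.4 and 32.6 and 28.8, 29.8, 30.7, 32.7 and 35 CPM (0.23, SE 0.11, adjusted p = 0.296). Of the 7 pericyte genes 7 lay above WT, with a median of 0.21, and of the 21 endothelial genes 8, with a median of -0.01. The median over all genes was 0.01. At 4 weeks 2 of the 7 pericyte genes lay above WT. Of the striatal neuron genes, Tac1 rose by 0.43 (adjusted p = 0.0129) and Rgs9 fell by 0.49 (adjusted p = 0.00178) at 12 weeks. Both calls held in 17 of 17 alternatives. Tac1 and Rgs9 were listed with earlier results of these data known, and the part of neurons in the members' values was not tested.

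**Figure D4:**
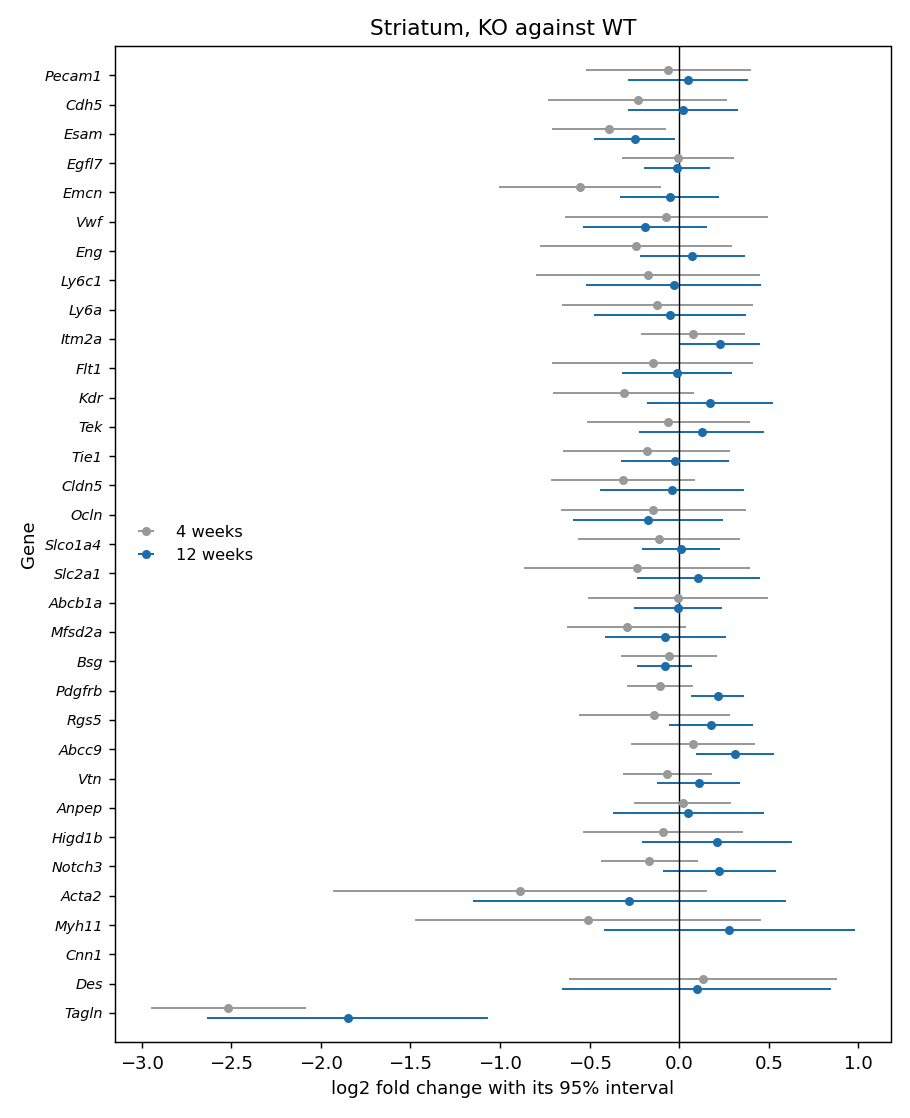
Log2 difference of KO from WT in striatum with its 95% interval (x axis) for the members tested and Tagln (rows), at 4 and 12 weeks. The adjusted p of each member is above 0.05, and Tagln stands apart at -2.51 at 4 weeks and -1.85 at 12 weeks.

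A contractile gene outside the 32 did change in striatum. Tagln, transgelin, an actin-binding protein abundant in smooth muscle, had 10.03, 13.1, 13.7, 15 and 16.2 CPM in WT, 6.17, 10.5, 11.8, 12.3 and 15.2 in HET and 2.07, 2.17, 2.24, 2.34 and 3.05 in KO at 4 weeks. The KO libraries lay below all WT and HET libraries, and Tagln fell by 2.51 (SE 0.20, adjusted p = 5.7e-06). At 12 weeks it had 8.14 to 24.3 CPM in WT and 2.72 to 5.29 CPM in KO and fell by 1.85 (SE 0.37, adjusted p = 0.00756). The smooth muscle score was 1.00 to 2.05 in WT and 0.87 to 1.70 in KO at 4 weeks, and 0.87 to 1.58 and 1.06 to 1.85 at 12 weeks, overlapping at both ages. Tagln was the 1 gene called of 14 tested on its list of contractile genes at each age. It was put on that list with its change in these data already known.

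Few other genes of the vessel lists were called in KO. At 4 weeks in STR, Tfrc, the transferrin receptor, rose by 0.45, and of the fibroblast genes Igf2 fell by 0.69 and the collagen gene Col1a1 by 0.59 (adjusted p = 0.0433). The Col1a1 call was lost in 5 alternatives besides 9 of the 10 that leave out 1 library. At 12 weeks Slc3a2, a partner of amino acid transporters, rose by 0.38, Axin2, a Wnt target, rose by 0.48, and Hey1, a Notch target, fell by 0.28, a call that held in 7 of 17 alternatives. In PFC at 4 weeks Hes1, another Notch target, fell by 0.78 (adjusted p = 0.0422), a call that held in 7 of 16 alternatives. The VEGF, angiopoietin and PDGF list had 0 of 17 called in STR at 4 weeks and 0 of 16 at 12 weeks, and the endothelial transcription factors 0 of 14 at both ages.

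Outside striatum the smallest p-values were scattered. At 4 weeks 2 of 32 members had an unadjusted p under 0.05 in PFC and 3 of 31 in TH, against 15.1% and 13.9% of all genes. In PFC at 4 weeks Egfl7 had 24.1, 24.5, 26.2, 28.6 and 28.8 CPM in WT and 21.5, 21.7, 21.7, 22.1 and 24.1 CPM in KO (-0.25, SE 0.07, adjusted p = 0.201). DESeq2 gave it an adjusted p of 0.0478, in a range of 0.0478 to 0.454 over 16 alternatives. In TH at 4 weeks Pdgfrb had 20.9 to 26 CPM with a median of 24 in WT and 26, 27.5, 29.8, 32.1 and 34 CPM in KO (0.32, SE 0.08, adjusted p = 0.17). DESeq2 gave it an adjusted p of 0.0287, in a range of 0.0287 to 0.653 over 18 alternatives. Of 31 members 28 lay above WT in that comparison, with a median of 0.18, and so did 1 of 10 fibroblast genes.

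In SN at 4 weeks 6 of 32 members had an unadjusted p under 0.05, all higher in KO, against 6.04% of all genes in either direction. Vwf had 9.89 to 36.9 CPM with a median of 20.6 in WT and 18.7, 42.4, 69.7, 72.1 and 80.7 CPM in KO, overlapping in 1 KO library (1.41, SE 0.56, adjusted p = 0.643). Tek, Pecam1, Cdh5, Abcb1a and Ocln had 0.59, 0.60, 0.71, 0.57 and 0.50. The WT group holds the library that goes against its Akap11 label, and 9 of 10 fibroblast genes lay above WT, with a median of 1.52; their part in these values was not tested. At 12 weeks Vwf had -0.53 in SN (SE 0.20, adjusted p = 0.649).

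In heterozygotes, which share their WT libraries with KO, 0 of the 32 genes were called in the 12 comparisons by edgeR and 0 by DESeq2. The share of all genes called was 0.00626% in PFC, 0.00627% in SSC, 0% in HP, 0.00648% in STR, 0.00639% in TH and 0% in SN at 4 weeks, and 0.00613% in PFC, 0.00629% in SSC, 0.00608% in HP, 0.0064% in STR, 0.0064% in TH and 0.00606% in SN at 12 weeks. The 1 gene called in each of 10 comparisons was Akap11. Among all genes the share with an unadjusted p under 0.05 ran from 1.65% (SSC at 12 weeks) to 16.3% (TH at 4 weeks). Of 380 tests of a member 22 had an unadjusted p under 0.05, 1 higher and 21 lower.

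Of these 22 tests 15 belonged to TH at 12 weeks, where all 15 genes lay lower in HET, against 4.93% of all genes lower at that p. They were named after their values were seen: Cdh5, Esam, Egfl7, Emcn, Eng, Itm2a, Flt1, Kdr, Tek, Tie1, Ocln, Slco1a4 and Abcb1a of endothelium, and Rgs5 and Vtn of pericytes. The smallest adjusted p was 0.390, so 0 members passed the test without a replicate block. Cdh5, VE-cadherin, had 12.9, 13.5, 14.2, 15.1 and 18.5 CPM in WT, 9.02, 9.61, 9.64, 11.1 and 13.2 in HET and 11.6, 11.8, 13, 15.4 and 16.3 in KO. One HET library reached the WT range, and the HET difference was -0.50 (SE 0.13, adjusted p = 0.39). Tie1, an angiopoietin co-receptor, had 12.2, 13.4, 14.8, 15 and 15.1 CPM in WT and 9.30, 9.46, 10.5, 10.6 and 12.3 in HET (-0.43, SE 0.10, adjusted p = 0.39). Flt1 had 58.2, 63.9, 68.3, 68.9 and 88 CPM in WT and 44, 48.5, 49.8, 50.9 and 66.7 in HET (-0.42, SE 0.12, adjusted p = 0.39). In Tie1 and Flt1, too, the highest HET library lay within the WT range.

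The endothelial score in this comparison was 4.61 to 4.90 in WT, 4.34 to 4.62 in HET and 4.45 to 4.86 in KO. Of 31 members 30 lay below WT in HET, with a median of -0.28, and 14 in KO, with a median of 0.01. The endothelial transcription factors lay below WT for 14 of 14 genes in HET, with 0 called. Genes of other cells did too: 9 of 10 fibroblast genes, 7 of 8 astrocyte genes and 8 of 8 microglia genes. With the fibroblast score as a covariate the HET difference was -0.24 for Cdh5, -0.14 for Flt1 and -0.37 for Tie1.

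**Figure D5:**
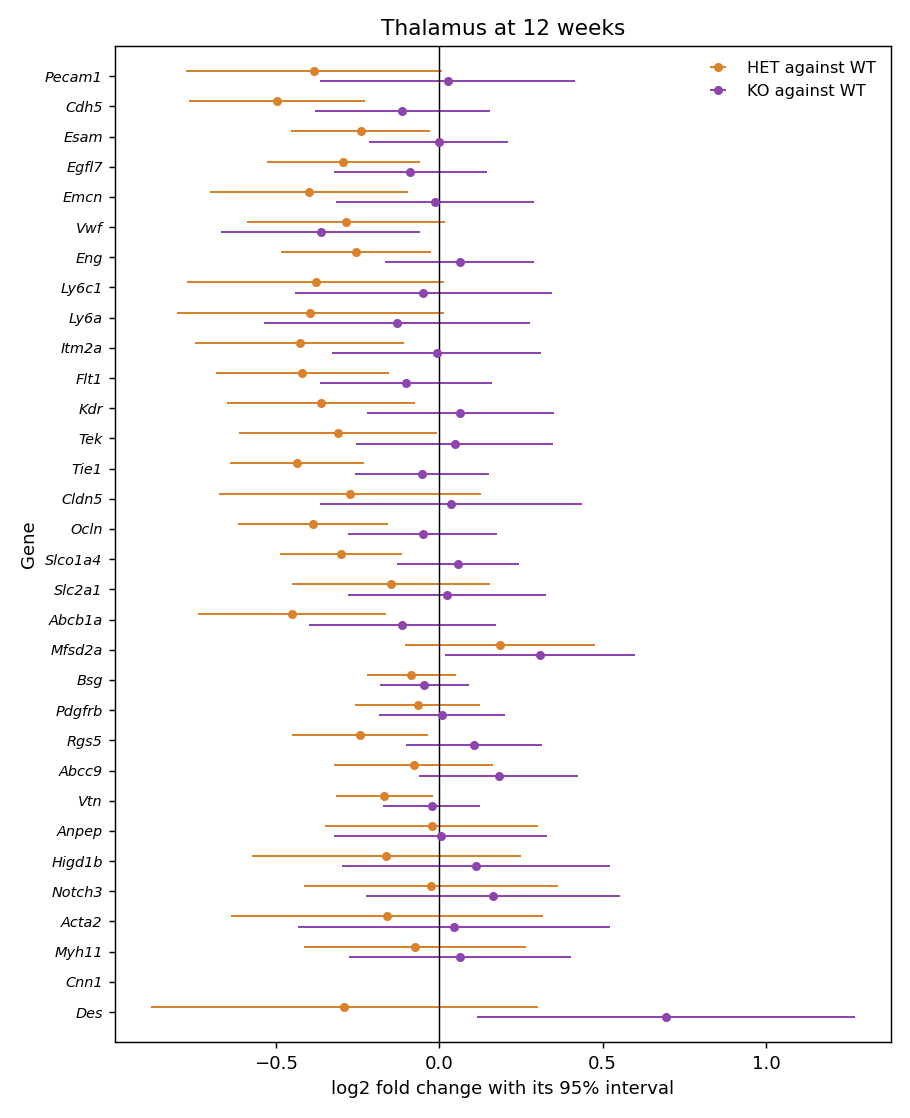
Log2 difference of HET and of KO from WT in 12-week thalamus with its 95% interval (x axis) for the 31 members tested (rows). HET values lie below 0 for 30 members and KO values for 14; both comparisons use the same WT libraries, and 0 members passed the test.

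The KO effect was also compared between ages and between regions, by testing the difference itself. Between 12 and 4 weeks 0 members were called in the 6 regions by edgeR and 0 by DESeq2, with 0% of all genes called in PFC, 0% in SSC, 0% in HP, 0% in STR, 0% in TH and 0% in SN. Among all genes 2.84% (HP) to 7.50% (SN) had an unadjusted p under 0.05. Of 191 tests of a member 7 had an unadjusted p under 0.05, among them Vwf in SN (-1.95, SE 0.64, adjusted p = 0.611) and Pdgfrb in STR (0.31, SE 0.11, adjusted p = 0.594). When the KO effect in striatum was set against the average effect elsewhere, 0 members were called by edgeR or DESeq2, where 2.34% of all genes were called at 4 weeks and 3.34% at 12 weeks. Of 64 tests 2 had an unadjusted p under 0.05, Pdgfrb at 4 weeks (-0.27) and Esam at 12 weeks (-0.25). Among all genes 12.7% had such a p at 4 weeks and 13.3% at 12 weeks. Tagln was called at both ages, with -2.60 at 4 weeks (adjusted p = 3.2e-04) and -1.62 at 12 weeks (adjusted p = 0.0073).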

How the data were processed

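RNA from 186 mouse brain pieces was sequenced, and the authors deposited expected counts per gene for each library. Per the submitters' processing notes the tool was Salmon and the build mm10; the sources used here give no version or options. Per the labels' protocols, libraries were made with a stranded mRNA kit from 200 ng of total RNA. Of 28338 genes 2991 were at 0 in all libraries, and 77.9% of values above 0 were not whole. Expected counts were rounded to whole numbers and tested with edgeR 4.0.16 in R 4.3.3 (quasi-likelihood test, TMM scaling, filterByExpr by group, Benjamini-Hochberg adjustment over all genes tested in a comparison). DESeq2 1.42.0 was an alternative.

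Genotype fits used the 3 genotypes of 1 region and age, regional fits the WT libraries of 1 age, and age fits all libraries of 1 region. Scores are means of log2(CPM + 1) over a list. In no pair of replicates (390 pairs) did counts differ by as little as sampling noise. Group labels came from region, age and genotype. The scripts were tested on simulated data with known changes.

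The members were taken as given, and how they were chosen is not stated. The other lists were written with earlier results of these data known, those of Tagln, C1qa, C1qb, Aqp4, Tac1, Rgs9, Emx1 and Ttr among them. Named were all called members in genotype tests and otherwise the 4 with the smallest p in striatum at each age, the 2 largest differences in each direction per region or age, and up to 2 called genes per other list and direction; the other members given with values were chosen after their values were seen. Alternatives were other scaling, no filter, DESeq2, other samples in the fit, replicate blocks, covariates and leaving out libraries.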

Additional observations from a re-analysis of the deposited data

Results flagged for a closer look

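Among 108 groups of scores examined, of which chance flags about 1 in 20, 2 held a library far from its group. The endothelial score of KO 3 in 12-week SN was 4.48, against 4.64 to 4.68 in the other 4 libraries. The smooth muscle score of WT 5 in 12-week TH was 1.26, against 1.47 to 1.51 in the others.

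For 7 genes of the other lists the difference between KO and WT was not the same in striatum as on average elsewhere, by the test of that contrast itself. At 4 weeks the log2 difference was -2.60 for Tagln, 1.17 for Hes1, 0.70 for Wnt7a, and 3.47 for Emx1 and 3.19 for Neurod1, which mark cortical neurons. Of the 14 alternatives the calls held in 10 for Hes1, 5 for Wnt7a, 5 for Emx1 and 8 for Neurod1, with Emx1 lost under DESeq2 (adjusted p = 0.0537) and Wnt7a without the low-count filter (adjusted p = 0.0645). The striatal KO libraries 51, 161 and 163 stand apart in cortical neuron genes; their part in these values was not tested. At 12 weeks it was -1.62 for Tagln, 0.39 for Slc3a2 and 4.59 for the choroid plexus gene Ttr, which became -0.31 without striatal KO 4.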

How the results depend on the processing

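Members called in KO, HET or the tests of a difference stayed at 0 with each other scaling and without the low-count filter. DESeq2 called 1 in KO of PFC and 1 in KO of TH at 4 weeks, and leaving out the libraries that stand apart gave 1 in KO of 4-week STR. Libraries of different genotypes come from different animals. Whether libraries of 1 genotype with the same replicate number share an animal across regions is not stated. Deviations of same-numbered libraries correlated over 0.1 in 19 of 30 WT and KO pairs and 50 of 75 pairs of WT regions at 12 weeks. At 4 weeks they did so in 31 of 76 pairs of WT regions. Differently numbered libraries were not compared, so these counts cannot show whether the numbers pair the libraries. Between genotypes a replicate block lines up numbers and not animals. With it 1 member was called in HET of 12-week TH (Cdh5, -0.50, adjusted p = 0.0485). The adjusted p of Cdh5 ran from 0.0485 to 0.854 over 15 alternatives. Over the 12 regional comparisons the block gave 162 member calls, against 132 without it. The replicate block gave 14 regional calls in PFC, 7 in SSC and 5 in HP at 4 weeks, and the striatal contrasts of Emx1 (adjusted p = 0.0984) and Neurod1 (adjusted p = 0.0544) did not pass with it. Regional calls without the WT libraries that stand apart, chosen after seeing the data, were 6 in SSC, 6 in HP and 4 in SN at 4 weeks.

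For age, DESeq2 called 8 members in PFC. The fibroblast covariate, chosen after seeing the data, gave 13 in PFC, 5 in HP, 1 in STR and 8 in SN. A fit of the WT libraries alone gave 5 in HP, 5 in TH and 0 in SN. SN had 0 calls without WT 42 and 92, and 9 without the libraries of few whole numbers; both were chosen after seeing the data. Leaving out 1 replicate gave 4 to 10 regional calls in PFC, 1 to 5 in SSC, 2 to 5 in STR and 3 to 10 in SN at 4 weeks and 7 to 10 in SSC at 12 weeks, and age calls of 3 to 9 in PFC, 5 to 13 in HP, 5 to 11 in TH and 2 to 5 in SN. With the fibroblast covariate the Mfsd2a difference in KO of 4-week STR was 0.0083, and the Ttr contrast ran from -0.31 (without KO 4) to 5.70 when 1 striatal replicate was left out. The cause of these changes was not tested. Precision was lowest in 4-week SN, where 20 of 32 KO intervals lay within 1 of 0.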
